A study of Mus musculus with 16 samples.

Results

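Ntrk2, Themis, Acss3 and Aqp8 are 4 of the 22322 genes measured in liver and white adipose tissue of diet-induced obese (DIO) mice given halofuginone or vehicle. They were chosen by name, as clear falls in the treated liver among genes without a set place in lipid or matrix pathways. The choice used the liver counts themselves, so the liver values below are a description with no test, and a test was possible only in the fat libraries, for 3 of the 4 genes. Halofuginone is a derivative of a plant alkaloid and blocks prolyl-tRNA synthetase, the enzyme that loads proline onto its tRNA. Mice labelled H100 had 100 μg/kg by intraperitoneal injection every 2 days and mice labelled HFD had vehicle on the same schedule, all of them obese from diet, and tissue was taken after 8 weeks. There were 5 livers and 3 fat samples in each group. The labels used here give no strain, age, sex, fat depot or link between a liver and a fat sample, and they do not state that replicates were separate animals, so p-values measure the spread between these samples.

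The genes belong to separate pathways. Ntrk2 encodes TrkB, the receptor tyrosine kinase for the neurotrophins BDNF and NT-4, best known from neurons. Themis encodes an adaptor that acts below the T cell receptor and is needed for T cell development in the thymus. Acss3 encodes a mitochondrial acyl-CoA synthetase that activates short-chain acids, propionate above all, and Aqp8 encodes a water channel that in hepatocytes lies in vesicles, the canalicular membrane and mitochondria.

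Total counts were 20309956 to 31980683 per liver library and 17070614 to 21387799 per fat library, and 3 counts of a liver library amount to 0.0938 to 0.148 CPM, a count divided by the library's scaled total. All 7 hepatocyte markers were measured in liver, and Adipoq and Lep, made by fat cells, had at least 17166 and 18143 counts in every fat library. One treated liver stood apart. On the first principal component of the liver libraries, which held 56.2% of the variance, the vehicle livers lay between -36.0 and -28.3, halofuginone livers 2 to 5 between 32.4 and 58.0, and halofuginone liver 1 at -23.3, next to the vehicle livers. Liver results are therefore given with it and, where its absence changes them, without it. The summed level of the 7 hepatocyte markers was 119400 to 138700 CPM in vehicle and 48100 to 111200 CPM in treated livers. Most of it was Alb, which averaged 94150 CPM in vehicle and 51780 CPM in treated livers and was not called. Of the 7, 2 were called lower and 0 higher, against 10.5% and 12.7% over all genes. Without halofuginone liver 1, 4 were called lower and 1 higher, in a fit that called 2684 genes lower and 2628 higher. Cps1 and Fgb had log2 fold changes of -0.04 and 0.57 and were not called. Without halofuginone liver 1, Alb was called lower (log2 fold change -1.1, edgeR Benjamini-Hochberg adjusted p = 0.0134). Fgb was then called higher (0.73, adjusted p = 0.048 in the same edgeR test), and Cps1 was not called (-0.01). The part of the hepatocyte markers in the falls below was not tested. In bulk tissue, fewer cells of a type and less RNA per cell cannot be told apart.

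The RefSeq promoter windows (build GRCm38.p6, 250 bases before to 50 after the annotated start) are shown for 3 of the members. Each gene was picked for its own fall in liver, and shared control was not tested. The capitals mark the match to a searched motif. Ntrk2 lies at chr13:58806319-58806618, Themis at chr10:28668110-28668409 (the first of 2 entries) and Aqp8 at chr7:123462044-123462343, each on the plus strand.
Ntrk2: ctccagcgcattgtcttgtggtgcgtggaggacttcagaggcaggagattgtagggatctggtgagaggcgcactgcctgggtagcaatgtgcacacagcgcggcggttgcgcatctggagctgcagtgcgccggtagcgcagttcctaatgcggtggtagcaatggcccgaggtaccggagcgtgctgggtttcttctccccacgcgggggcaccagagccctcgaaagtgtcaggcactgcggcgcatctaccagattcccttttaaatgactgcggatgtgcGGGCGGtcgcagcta
Themis: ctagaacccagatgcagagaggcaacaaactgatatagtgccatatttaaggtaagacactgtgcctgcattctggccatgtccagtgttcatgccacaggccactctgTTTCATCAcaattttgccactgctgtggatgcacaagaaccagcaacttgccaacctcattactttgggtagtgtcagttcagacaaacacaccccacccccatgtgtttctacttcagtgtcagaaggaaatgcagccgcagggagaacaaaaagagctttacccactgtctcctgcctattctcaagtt
Aqp8: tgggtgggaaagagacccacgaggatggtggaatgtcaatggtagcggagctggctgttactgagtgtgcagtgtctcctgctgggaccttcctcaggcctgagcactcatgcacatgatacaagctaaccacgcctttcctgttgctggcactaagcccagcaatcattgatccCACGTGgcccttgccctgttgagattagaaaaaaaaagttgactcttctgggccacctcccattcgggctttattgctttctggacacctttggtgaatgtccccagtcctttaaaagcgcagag
Of the 7 motifs searched on both strands, none matched in more than 1 of the 3 windows. The Ntrk2 window held the GC box GGGCGG at bases 286 to 291, as 35.6% of 32817 promoter windows did. The Themis window held a reverse match to TGATGNAA, the core of the C/EBP-ATF response element, at bases 110 to 117, as 3.97% of windows did. The Aqp8 window held the palindromic E-box CACGTG at bases 176 to 181, as 7.15% did. TATAAA (13.6% of windows), CCAAT (37.4%), TTCNNNGAA (8.29%) and the direct repeat 1, which is AGGTCA, any base and AGGTCA again (0.0396%), matched in none of the 3 windows. These are matches of letters and not measured sites.

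Each of the 4 genes was lower in every halofuginone liver than in every vehicle liver, which also held for 6.55% of the 12311 genes tested in liver. Since the genes were picked on this contrast, nothing is read from that count. Over all genes, the quasi-likelihood test of edgeR called 10.5% lower and 12.7% higher (23.2% in all) at a Benjamini-Hochberg adjusted p under 0.05, and 39.1% passed an unadjusted p of 0.05. Treated livers lay above all vehicle livers for 5.13% of genes. The median log2 fold change was 0.02. With library size as the only scaling 2789 genes were called higher and 838 lower, against 1558 and 1292 here. Without halofuginone liver 1 the calls were 2628 higher and 2684 lower.

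**Figure D1:**
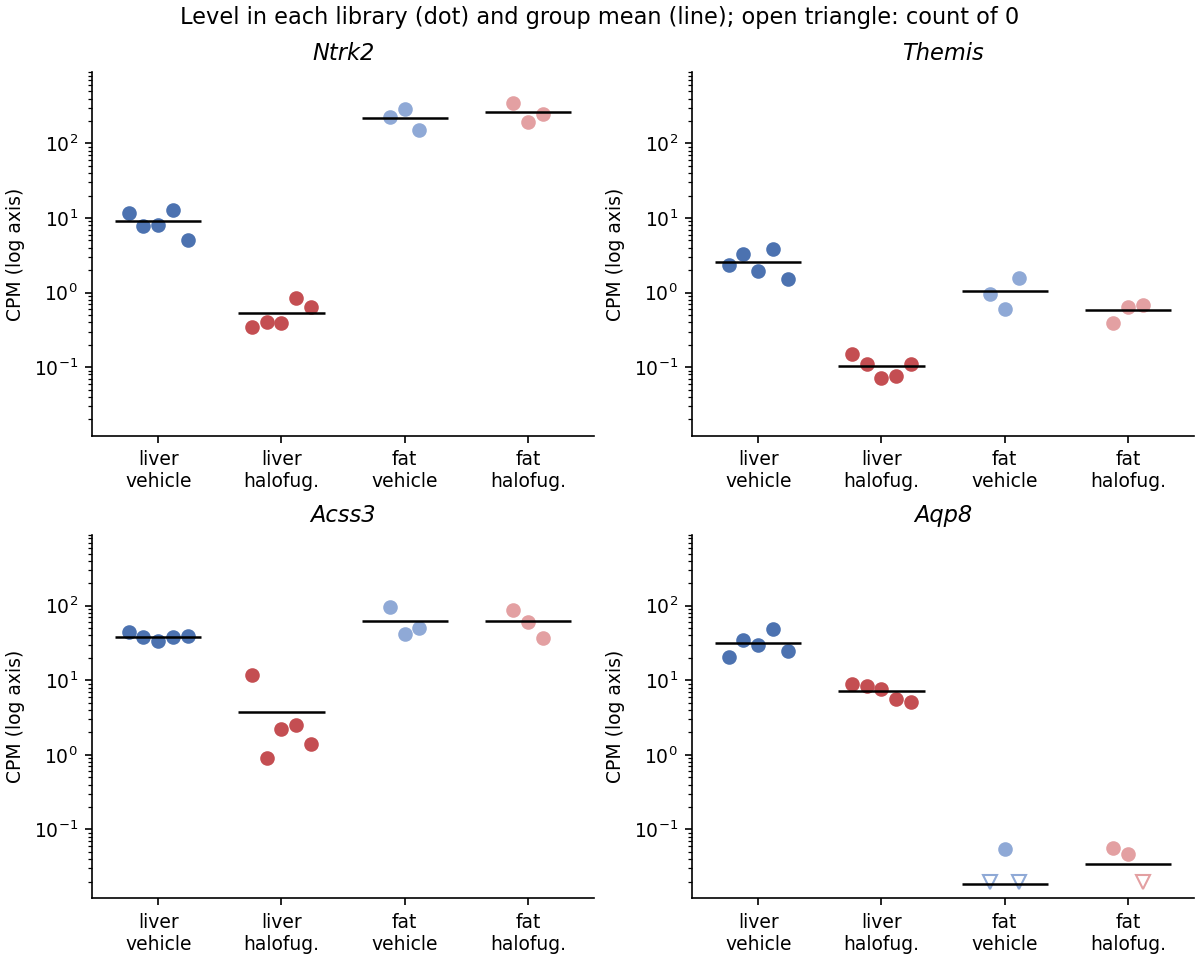
CPM on a log axis (y) of Ntrk2, Themis, Acss3 and Aqp8 in each library (dots), grouped by tissue and treatment (x), with the group mean as a line and open triangles for a count of 0. The liver groups are apart for all 4 genes, while the fat groups overlap for all 4. Liver and fat were scaled separately.

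Ntrk2 (ENSMUSG00000055254) stood at 11.5, 7.71, 8.16, 12.6 and 5.11 CPM in vehicle livers 1 to 5. In halofuginone livers 1 to 5 it stood at 0.348, 0.410, 0.394, 0.849 and 0.633 CPM, from 7 to 22 counts a library. The groups were apart, and the lowest vehicle liver was number 5 while the highest treated liver was number 4. Vehicle livers averaged 9.03 ± 3.04 CPM and treated livers 0.527 ± 0.211 (SD, n = 5 each), with a log2 fold change at -4.08 (SE 0.32). Taken from summed counts per total counts, the ratio of vehicle to treated was 15.2, with an exact 95% interval of 11.9 to 19.7 that covers counting error only. It leaves out the spread between livers, which was larger than counting error, and the choice of the gene for its fall.

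Themis (ENSMUSG00000049109) was a low-count gene in liver already without drug. The vehicle livers held 60, 66, 42, 103 and 46 counts, or 2.38, 3.31, 1.96, 3.85 and 1.51 CPM. The treated livers held 3, 3, 2, 2 and 3 counts, at or under the level that 3 counts mark. The average was 2.60 ± 0.963 CPM without and 0.104 ± 0.0313 with the drug (SD, n = 5 each) and the fitted log2 fold change was -4.60 (SE 0.36). The 317 vehicle counts against 13 treated counts gave a ratio of 22.6 per total counts (exact 95% interval 13.0 to 42.9), the widest interval of the 4 genes. This interval, too, covers counting error only.

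Acss3 (ENSMUSG00000035948) was even among the vehicle livers, at 44.8, 37.9, 33.9, 37.6 and 38.9 CPM. The treated livers 1 to 5 had 11.8, 0.895, 2.22, 2.55 and 1.38 CPM. Halofuginone liver 1 was the highest of its group by a wide gap and still below every vehicle liver. Averages were 38.6 ± 3.94 CPM in vehicle and 3.76 ± 4.53 in treated livers (SD, n = 5 each), and the log2 fold change was -3.40 (SE 0.57) with halofuginone liver 1 and -4.47 without it.

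Aqp8 (ENSMUSG00000030762) fell least of the 4. Vehicle livers had 20.6, 34.6, 29.8, 49.1 and 24.4 CPM, and treated livers 8.94, 8.28, 7.55, 5.63 and 5.14 CPM. The treated values were narrow and the vehicle values wide, without overlap. Averages were 31.7 ± 11.1 CPM in vehicle and 7.11 ± 1.66 in treated livers (SD, n = 5 each), with a log2 fold change at -2.16 (SE 0.24).

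As a share of the vehicle mean, the treated livers kept 3.85% to 9.40% of Ntrk2, 2.75% to 5.74% of Themis, 2.32% to 30.5% of Acss3 and 16.2% to 28.2% of Aqp8. Per transcript length, in the authors' FPKM (fragments scaled by transcript length and library total), the order in vehicle liver was Aqp8 at 20.4 ± 7.69, Acss3 at 8.12 ± 0.899, Ntrk2 at 1.68 ± 0.636 and Themis at 0.524 ± 0.255 (SD, n = 5). In vehicle liver, each gene's lowest library lay above the highest library of the next gene, except that the lowest Ntrk2 library (0.890) lay under the highest Themis library (0.930). In treated liver the order was the same, at 5.09, 0.858, 0.144 and 0.0480 FPKM, with overlap between Ntrk2 (0.0900 to 0.230) and Themis (at most 0.130) and no other overlap between neighbours in the order.

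**Figure D2:**
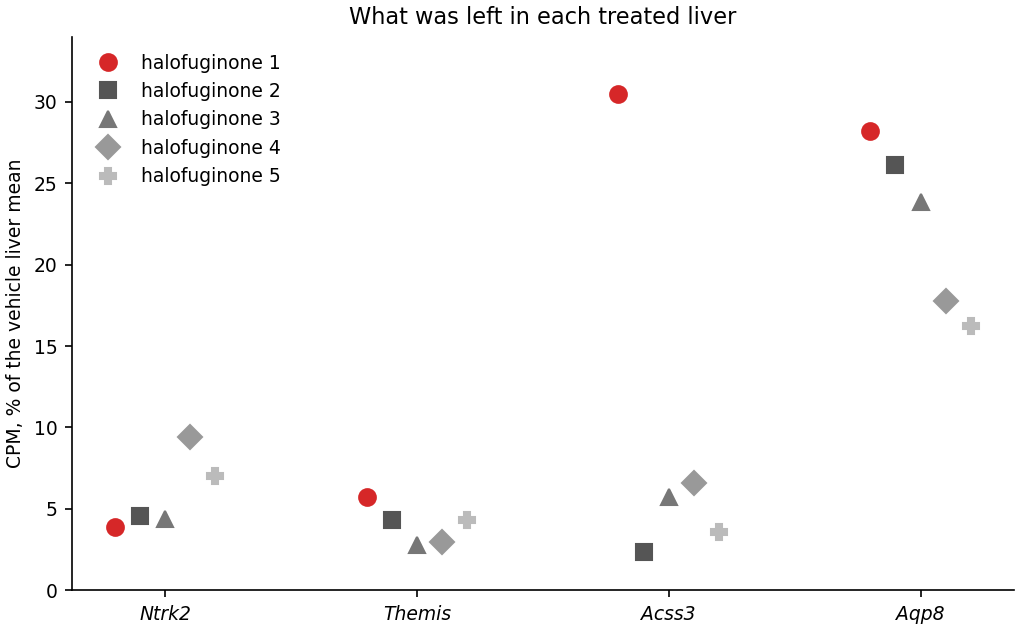
CPM in each halofuginone liver as a percent of the vehicle liver mean (y) for each gene (x), with a marker for each treated liver and halofuginone 1 in red. Halofuginone 1 kept 30.5% of Acss3 against at most 6.59% in the other treated livers, and 3.85% of Ntrk2.

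Halofuginone liver 1 kept close to vehicle levels for most genes that fell in the other treated livers, and differed among the 4 genes. Among 713 other genes called lower without it (vehicle level of at least 1 CPM, log2 change under -1), its median log2 change was -0.29 against -1.40 for the mean of livers 2 to 5, a median ratio of 0.183. It was below every vehicle liver for 44.7% of those genes. For Ntrk2 its log2 change was -4.34 against -3.79, a ratio of 1.15, and 97.0% of the 713 genes had a smaller ratio. Themis had a ratio of 0.894 and Aqp8 of 0.795, above 93.1% and 90.3% of the 713 genes. Acss3 had a ratio of 0.379, from -1.70 against -4.49, above 68.9%. The 4 genes were picked over all 5 treated livers, liver 1 included, so these ranks are a description. These log2 changes are from CPM with a prior count of 2 added before the log, which draws low-count changes toward no change.

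The likeness of patterns was measured as the root mean square (RMS) difference of log2 change from the vehicle mean over the 10 livers, among 11383 genes. It takes in the size of a fall, for which the 4 genes were picked. The prior count of 2 also limits it for Themis, with 2 to 3 counts in treated livers. Ntrk2 and Themis were each the other's nearest gene, at an RMS of 0.470. Next to Ntrk2 came Gsta1 (0.561), a glutathione transferase whose counts are uncertain because of its near-identical relatives. Next to Themis came Plin4 (0.588), a lipid droplet coat protein, and Mogat1 (0.601), a monoacylglycerol acyltransferase. Mogat1 stood at 4.24 ± 1.32 CPM in vehicle and 0.402 ± 0.143 in treated livers (SD, n = 5 each).

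Acss3 had Serpinb1a, a serine protease inhibitor, as its nearest gene (RMS 0.478), then Plin4 (0.591) and Sema5b (0.622), a semaphorin. Serpinb1a also stayed highest in halofuginone liver 1, at 4.82 CPM against a treated mean of 1.21 ± 2.02 (SD, n = 5). Nearest to Aqp8 were Gprc5b, an orphan receptor (RMS 0.296), Cd36, a fatty acid transporter (0.385), and Col1a1, a fibrillar collagen chain (0.399). Cd36 stood at 223 ± 21.8 CPM in vehicle and 67.3 ± 23.4 in treated livers (SD, n = 5 each). Seen from Aqp8, the other 3 genes ranked 1653 (Themis), 3322 (Ntrk2) and 5708 (Acss3) of 11383. All these points share the same 10 libraries and a vehicle-to-treated step, so no p is attached.

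In white fat none of the 4 genes was called. Of 14030 genes tested there, edgeR called 0 after Benjamini-Hochberg adjustment (0%), while 1881 (13.4%) had an unadjusted p under 0.05 and DESeq2 called 665. The groups overlapped for each of the 3 members tested in fat, as they did for most genes there. They did not overlap for 20.6% of all genes tested (10.4% lower, 10.2% higher), so nothing is read from the overlap of the 3 members.

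Ntrk2 had 2631 to 6121 counts in each fat library. Vehicle fat had 226, 288 and 152 CPM and treated fat 347, 193 and 252 CPM, so the groups overlapped in part. The means were 222 ± 68.2 and 264 ± 77.7 CPM (SD, n = 3 each), and edgeR gave a log2 fold change of 0.25 (SE 0.31, Benjamini-Hochberg adjusted p = 0.781). In FPKM the vehicle mean was 54.5 ± 21.8 in fat, where the vehicle livers had 1.68, from tables that were normalized separately.

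Acss3 was also well above the detection limit in fat, and it was not called there. Vehicle fat had 95.8, 41.7 and 49.9 CPM and treated fat 88.7, 59.9 and 37.2 CPM. The means were 62.4 ± 29.2 and 61.9 ± 25.8 CPM (SD, n = 3 each), and edgeR gave a log2 fold change of -0.01 (SE 0.41, Benjamini-Hochberg adjusted p = 0.995). Its sign turned under another scaling, at 0.05 with library size alone. Themis had 16, 11 and 27 counts in vehicle fat and 7, 14 and 13 in treated fat. Its log2 fold change in edgeR was -0.84 (SE 0.55, Benjamini-Hochberg adjusted p = 0.562). Aqp8 was at the limit of detection in fat, with 0, 1 and 0 counts in vehicle and 1, 1 and 0 in treated libraries, and was not tested. Whether the effects in liver and fat differ was not tested for the 4 genes, since the choice of genes fixed the liver side.

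Ntrk2 and Acss3 were also measured in the fat libraries, so markers of fat cells were set beside them. In liver the 5 adipocyte markers summed to 38.4 to 103 CPM in vehicle and 4.37 to 52.3 CPM in treated livers. Of the 2 tested, Cfd (adipsin) was called lower, from 172 to 609 counts in vehicle to 0 to 2 in treated livers, and Cidec was not called. Lep was at 0 in every liver, and Adipoq and Plin1 had at most 1 count. Stellate cell markers summed to 112 to 142.5 CPM in vehicle and 84.6 to 124 CPM in treated livers, with 2 of 7 called lower, and their part in the falls was not tested. Of the other lists in liver, 1 of 5 cholangiocyte markers was called lower, 2 of 5 endothelial markers higher and 2 lower, and 0 of 5 Kupffer, 0 of 6 periportal, 0 of 2 B cell and 0 of 2 NK cell markers were called. Without halofuginone liver 1 the endothelial calls were 1 higher and 3 lower, and 2 of 5 Kupffer and 1 of 6 periportal markers were called lower. Beside all these marker counts, 10.5% of all genes were called lower and 12.7% higher. Without halofuginone liver 1, 2684 genes were called lower and 2628 higher. No testis or epididymis marker was high enough to test.

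Of 17 listed neurotrophin ligands, receptors and adaptors other than Ntrk2, 12 were tested in liver, 1 was called lower and 0 higher (10.5% and 12.7% over all genes), with a median log2 fold change of -0.03 against 0.02 over all genes. The ligand gene Bdnf stood at 0.775 ± 0.251 CPM in vehicle and 0.987 ± 0.331 in treated livers, and the shared receptor Ngfr at 3.04 ± 0.837 and 3.00 ± 0.802 (SD, n = 5 each). The related receptor Ntrk3 was too low to test in liver, at 0.121 CPM in vehicle. The 1 called gene was Kidins220, a scaffold of Trk receptors, at 57.0 ± 3.64 and 43.0 ± 6.79 CPM (log2 fold change -0.41, SE 0.11, edgeR Benjamini-Hochberg adjusted p = 0.0238). That call was lost with library size alone (adjusted p = 0.0980), with limma on FPKM (0.0863), and without vehicle liver 2 or 3 or halofuginone liver 3, 4 or 5 (0.0511 to 0.0662). Schwann and nerve markers summed to 1.49 to 2.47 CPM in vehicle and 1.04 to 1.86 CPM in treated livers, with 0 of 2 tested markers called. Without halofuginone liver 1, 1 of the 2 was called lower, and the part of these markers in the fall of Ntrk2 was not tested.

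T cell receptor signalling is the setting in which Themis is known. Of 18 listed genes, 12 were tested, 1 was called lower and 0 higher (10.5% and 12.7% over all genes), with a median log2 fold change of -0.01. The called gene was Zap70, the kinase that binds the activated receptor, at 5.04 ± 0.524 CPM in vehicle and 2.58 ± 1.03 in treated livers (SD, n = 5 each). Its log2 fold change was -0.98 (SE 0.24, edgeR Benjamini-Hochberg adjusted p = 0.0175), and the call was lost with limma on unfiltered FPKM (adjusted p = 0.0595). Themis2, the family member of B cells and macrophages, stood at 6.10 ± 1.22 and 5.19 ± 2.03 CPM and was not called (edgeR Benjamini-Hochberg adjusted p = 0.475). Without halofuginone liver 1 it was called lower (log2 fold change -0.53, edgeR Benjamini-Hochberg adjusted p = 0.0251).

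Markers of T cells were low in both groups of livers. The summed level of 9 markers was 1.90 to 5.21 CPM in vehicle and 1.303 to 10.4 CPM in treated livers. Of the 2 tested, 0 were called, against 10.5% lower and 12.7% higher over all genes. Without halofuginone liver 1, 1 of 2 was called lower, in a fit that called 2684 genes lower. None of the 9 was at 0 in all libraries. The highest sum, 10.4 CPM, was in halofuginone liver 1, where Themis had 3 counts. The part of T cell number in the fall of Themis was not tested. Per length, Themis stood at 0.524 FPKM in vehicle liver and 0.243 in vehicle fat, while the receptor chain Cd3g stood at 0.588 in vehicle liver and 3.49 in vehicle fat.

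**Figure D3:**
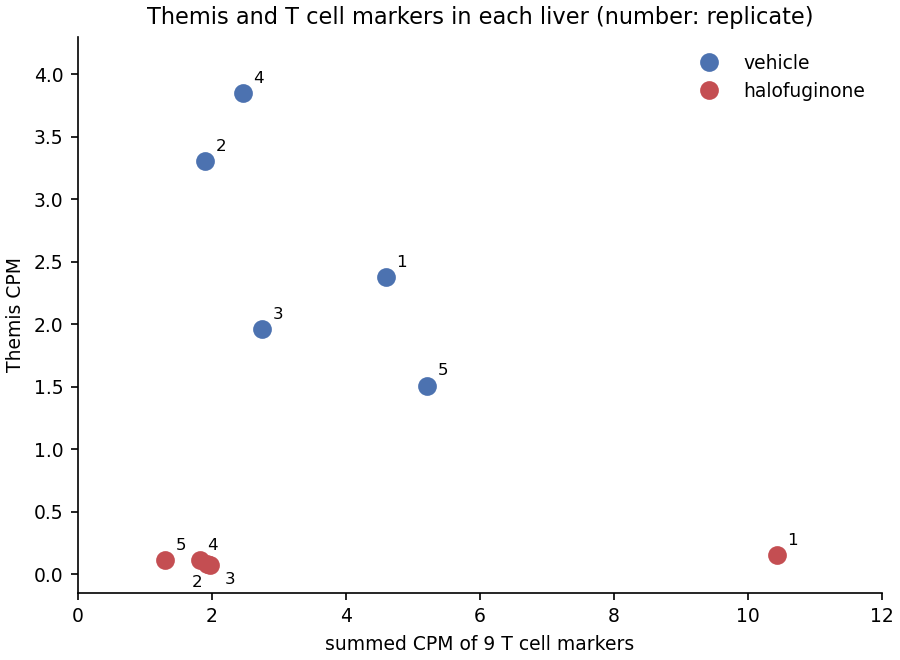
Themis CPM (y) against the summed CPM of 9 T cell markers (x) in each liver library, numbered by replicate, vehicle in blue and halofuginone in red. The treated livers lie along the bottom, at 0.149 CPM of Themis or less, also halofuginone 1 with 10.4 CPM of T cell markers. Themis was picked for its fall in these livers, so its low place there was fixed by the choice.

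Many listed genes of short-chain acyl-CoA and propionate metabolism were called lower in liver. The list was chosen with earlier results of these data known, so its counts against all genes are a description. Propionyl-CoA, from propionate, valine, isoleucine and odd-chain fatty acids, is carboxylated and rearranged in mitochondria to succinyl-CoA. Of 22 listed genes other than Acss3, 20 were tested in liver, 13 were called lower and 1 higher (10.5% and 12.7% over all genes), with a median log2 fold change of -0.48. For 12 of the 20 the groups did not overlap and treated livers were lower, against 6.55% of all genes. By role, 5 of 8 acyl-CoA synthetases, 4 of 6 genes of the step from propionyl-CoA to succinyl-CoA and 4 of 6 genes of valine breakdown and succinyl-CoA ligase were called lower. The count called lower was 14 without halofuginone liver 1, 8 without halofuginone liver 3 and 6 with limma on unfiltered FPKM. Over all genes these alternatives called 5312, 1275 and 1176 lower or higher, against 2850 in the main fit.

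Among the synthetases, Acsm3, which activates medium-chain acids, stood at 183 ± 19.3 CPM in vehicle and 66.2 ± 39.4 in treated livers (log2 fold change -1.47, SE 0.31, edgeR Benjamini-Hochberg adjusted p = 0.0107). Acss2, the cytosolic acetyl-CoA synthetase, stood at 46.6 ± 6.79 and 20.4 ± 6.57 CPM (-1.20, SE 0.21, adjusted p = 0.00635 in the same edgeR test). Aacs, which activates acetoacetate, stood at 71.96 ± 32.0 and 25.1 ± 13.4 CPM (-1.52, SE 0.42, adjusted p = 0.0264 in the same edgeR test), and lost its call without vehicle liver 2, 3 or 4 or halofuginone liver 3 (0.0550 to 0.0693). Acsm2 was the 1 gene called higher, from a low level of 0.167 ± 0.116 to 0.741 ± 0.210 CPM (2.21, SE 0.41, adjusted p = 0.00768 in the same edgeR test). Acss1, the mitochondrial acetyl-CoA synthetase, was too low to test, at 0.419 CPM in vehicle livers.

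Further along the pathway, Mcee, the epimerase of methylmalonyl-CoA, fell from 23.2 ± 2.19 to 12.5 ± 5.06 CPM (log2 fold change -0.90, SE 0.22, edgeR Benjamini-Hochberg adjusted p = 0.0177). Pcca, Pccb and Aldh6a1 are named after their values were seen. Pcca and Pccb, the subunits of propionyl-CoA carboxylase, had log2 fold changes of -0.55 and -0.42 (adjusted p = 0.0174 and 0.0388 in the same edgeR test). Pccb lost its call without any 1 of the vehicle livers and without halofuginone liver 2, 3 or 5 (adjusted p 0.0563 to 0.101), with library size alone (0.0900) and with limma on FPKM (0.0774 to 0.108). Pcca lost its call with limma on unfiltered FPKM (0.0652). Aldh6a1, the dehydrogenase that makes propionyl-CoA from the valine intermediate, went from 494 ± 18.6 to 315 ± 52.9 CPM (-0.65, adjusted p = 0.0100 in the same edgeR test) and kept its call in all 19 alternatives. Each of these 4 log2 fold changes was closer to 0 than that of Acss3, which was picked for its fall, so nothing is read from this. Of 7 pericentral hepatocyte markers, 3 were called lower and 0 higher, against 10.5% and 12.7% over all genes. Without halofuginone liver 1, 5 of 7 were called lower, in a fit that called 2684 genes lower and 2628 higher. Axin2 and Lgr5 had log2 fold changes of 0.38 and 0.13 and were not called. Without halofuginone liver 1, where Lgr5 stood at 8.20 CPM, they were at 0.39 and -0.57, again not called. The markers summed to 13990 to 17520 CPM in vehicle and 3458 to 14680 CPM in treated livers, which overlapped. Cyp2e1 alone averaged 12760 CPM in vehicle livers. The part of these markers in the falls of this list was not tested.

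**Figure D4:**
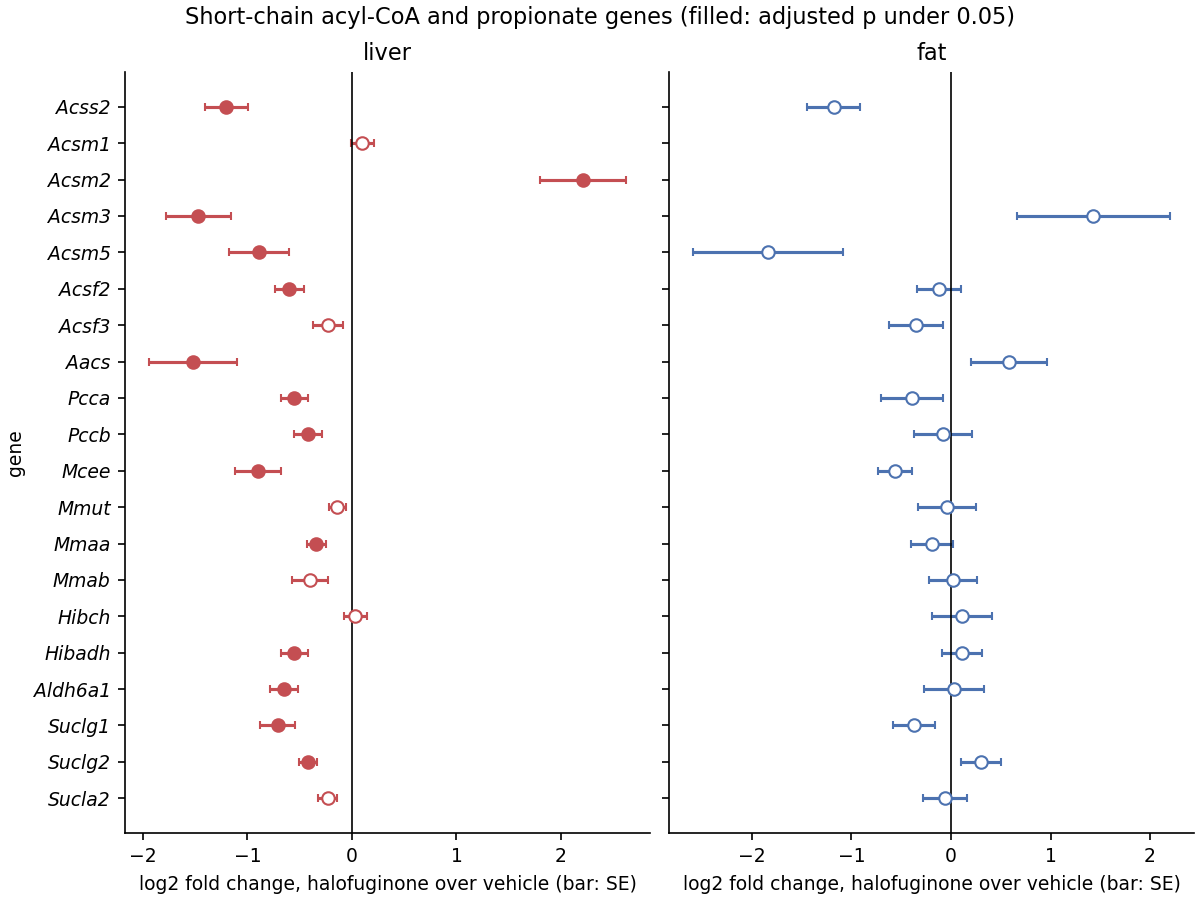
Log2 fold change of halofuginone over vehicle (x, bars are SE) for the listed short-chain acyl-CoA and propionate genes (y) in liver (left) and fat (right), filled where the adjusted p was under 0.05. In liver 13 genes are filled left of 0 and Acsm2 right of it; in fat none is filled.

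The other aquaporins showed no call in liver. Of 11 listed, 4 were tested, with a median log2 fold change of -0.21. Aqp1, the water channel of endothelium and bile ducts, stood at 113 ± 6.12 CPM in vehicle and 111 ± 19.3 in treated livers. Aqp9, through which hepatocytes take up glycerol, stood at 396 ± 45.9 and 300 ± 83.6 CPM (SD, n = 5 each; log2 fold change -0.40, edgeR Benjamini-Hochberg adjusted p = 0.148). Aqp11 stood at 26.6 ± 7.15 and 16.5 ± 9.08 CPM (adjusted p = 0.126 in the same edgeR test). Without halofuginone liver 1, Aqp9 and Aqp11 were called lower, with log2 fold changes of -0.55 and -1.07 (adjusted p = 0.0292 and 0.00457 in the same edgeR test). Aqp7, the glycerol channel of fat cells, had 1 to 7 counts in each vehicle liver and 0 in each treated liver, too few to test. Exocrine pancreas markers, a tissue rich in Aqp8, summed to at most 0.0373 CPM in vehicle and 0.707 CPM in treated livers, and Cpa1 and Cel were at 0 in every liver. Gut epithelium, also known for Aqp8, had 1 of 5 markers tested and called lower (Car1, also made by red blood cells), with a sum of 2.03 to 4.36 CPM in vehicle and 0.107 to 2.43 CPM in treated livers, while its defining factors Cdx1 and Cdx2 were at 0 in every liver.

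In fat, 0 of 15 neurotrophin, 0 of 17 T cell receptor, 0 of 19 propionate and 0 of 7 aquaporin genes were called by edgeR. At an unadjusted p under 0.05 there were 1, 0, 3 and 0. DESeq2 called 1, Acss2. It stood at 47.9 ± 15.8 CPM in vehicle and 21.2 ± 3.26 in treated fat (SD, n = 3 each), without overlap. Its log2 fold change in fat was -1.18 (SE 0.27) with a Benjamini-Hochberg adjusted p of 0.177 in edgeR and 0.00742 in DESeq2 (range over all alternatives 0.00742 to 0.565). In a joint fit of both tissues its effects differed by -0.01 (SE 0.355) on the log2 scale (edgeR Benjamini-Hochberg adjusted p = 1).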

How the data were processed

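Gene counts and FPKM of 16 libraries were used as the authors deposited them. The authors' gene table gives whole-number counts and FPKM per library, per the file headers, for 22322 gene IDs, of which 22267 carry a symbol. The submitters' processing notes name fastp 0.18.0, Bowtie2 2.2.8, HISAT2, StringTie 1.3.1, RSEM and the build mm39. The notes do not say which tool made the counts, which may be rounded estimates, so the counting intervals are approximate. Deposited columns of no listed sample numbered 0. Counts were tested within each tissue with edgeR 4.0.16 in R 4.3.3 (low-count filter of filterByExpr, TMM scaling, quasi-likelihood test, two-sided, Benjamini-Hochberg adjustment, threshold 0.05). The SE beside an edgeR log2 fold change is that change without its sign, divided by the square root of the test's F statistic. For the 4 genes in liver, picked on this contrast, it is a description and not read as a test. CPM are on TMM-scaled totals, and the scaling was separate for liver and fat. Every pair of replicates within a group differed by more than sampling noise (chi-square per degree of freedom at least 29.7 in liver and 50.5 in fat), and all were counted. Alternatives were DESeq2 1.42.0, other scalings and filters, limma 3.58.1 on log2(FPKM + 1) or log2(FPKM + 0.1), a replicate term, and each library left out. The scripts were tested on simulated data.

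The 4 genes, the pathway lists and the marker lists were chosen with earlier results of these data known. Named were the 4 genes, up to 4 called genes of largest change per list, tissue and direction, fixed near relatives, and the 3 genes of most like pattern, of which some are not reported here. The joint fit over both tissues, the list counts under each alternative and the account of halofuginone liver 1 were added after the data were seen. Promoters are from RefSeq on GRCm38.p6, a different build from mm39, so coordinates are given only for the promoter windows, on GRCm38.p6.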

Additional observations from a re-analysis of the deposited data

Results flagged for a closer look

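In 39 groups of 5 livers, a library was counted as far from the others where its gap to the next was above 0.71 of the group's range, which chance does in about 5% of groups. It did so in 5 groups, and 4 of these were halofuginone liver 1 as the highest treated liver.

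Acss3 stood at 11.8 CPM in halofuginone liver 1, with the next treated liver at 2.55 CPM. Acsm3 stood at 134 CPM there, with the next at 62.5 CPM. Kidins220 stood at 54.8 CPM, with the next at 42.1 CPM, and Themis2 at 8.74 CPM, with the next at 4.78 CPM. Aqp1 was lowest in vehicle liver 3, at 102 CPM, with the next vehicle liver at 115 CPM.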

How the results depend on the processing

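The 4 liver falls kept their direction in every alternative run. The genes were picked as clear falls in these same counts, so nothing is read from this. Without halofuginone 1 the log2 fold change of Acss3 was -4.47, and with limma on FPKM (pseudocount 1) it was -2.40, with or without a filter. With 1 library left out it lay between -4.47 and -3.15. With limma on unfiltered FPKM, Ntrk2 was at -1.20 and Themis at -0.53. In fat, Ntrk2 lay between 0.00 and 0.48, Themis between -1.11 and -0.11, and Acss3 between -0.36 and 0.44. Acss3 in fat was 0.05 with library size alone, 0.05 and 0.06 with limma on FPKM (pseudocount 1 and 0.1) and 0.05 unfiltered.

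The 2850 liver calls became 1176 with limma on unfiltered FPKM, and leaving out 1 library gave 1275 (without halofuginone 3) to 5312 (without halofuginone 1). The 0 fat calls became 665 with DESeq2, 1 without a filter, 13 with limma on FPKM and 3 with limma on unfiltered FPKM, and leaving out 1 library gave 0 to 1. Same-numbered replicates did not deviate together (correlations of deviations -0.16 to 0.06 in liver, 0.11, -0.57 and -0.12 in fat), so the numbers are not taken as pairs. With the replicate number as a block, 1901 genes were called in liver and 0 in fat, and Ntrk2, Themis, Acss3 and Aqp8 were at -4.04, -4.55, -3.90 and -2.12 in liver. Kidins220 and Pccb lost their calls with the block (edgeR Benjamini-Hochberg adjusted p = 0.0528 and 0.0694).

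Of genes not called, Aqp1 in liver turned to 0.12 with library size alone and 0.11 on FPKM, and lay between -0.12 and 0.05 with 1 library left out. Ngfr in liver turned to 0.14 and 0.07 in the same way (-0.13 to 0.13). In fat Bdnf was at -0.13 with the replicate block. With 1 library left out in fat, Bdnf lay between -2.02 and 2.07, Acss1 between -0.22 and 0.27, Aqp11 between -0.40 and 0.27, and Aqp7 between -0.58 and 0.05. The causes were not tested. Depth limits Themis and Ntrk2 in treated liver, with 2 to 3 and 7 to 22 counts, and Aqp8 in fat, with at most 1.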

Other observations

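Counts divided by FPKM give the transcript length, in kilobases, behind each FPKM value, up to a factor common to a library. For Ntrk2 this was 4.96 to 5.48 in vehicle livers and 3.82 to 4.41 in fat. The ratio of vehicle liver to vehicle fat was 1.26, where the median of 7596 genes was 1.00 and 0.356% of genes had a larger ratio. For Acss3 it was 4.47 to 4.61 in liver and 4.02 to 4.31 in fat, a ratio of 1.09 that 3.94% of genes exceeded. For Aqp8 it was 1.48 in all livers. Ntrk2 is known to be transcribed in a long form with a kinase domain and shorter forms without it. Which forms were present was not tested, since the files give 1 value per gene.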
